A study of Mus musculus with 6 samples.

Results

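Fos, Fosb, Jun, Junb, Jund, Atf3, Egr1, Nr4a1, Ier2 and Zfp36 were chosen by symbol as a set of immediate early genes. All 10 were found among the 55536 genes of the count table, and all 10 were among the 17499 genes that passed the filter on low counts and were tested. They were followed in the ovaries of ICR mice, an outbred stock, on the evening of proestrus, the day of the cycle before ovulation. M1, a small molecule described as a promoter of mitochondrial fusion, was injected intraperitoneally at 10 mg/kg at 9:00 and 16:00, and the Control mice received no M1. The labels do not spell out what was injected in its place. Both groups were female, 10 weeks old by the labels, and were sampled at 20:00, with 3 mice each and 1 library per mouse made from the pooled ovaries of that mouse. The labels call the cycle of the M1 mice disrupted and that of the Control mice normal.

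Immediate early genes are transcribed within minutes of a hormone, growth factor or stress signal, without any new protein being made first, and most of their mRNAs are short-lived. The Fos and Jun families pair through leucine zippers to form the transcription factor AP-1, whereas Egr1 and Nr4a1 bind DNA through zinc fingers. In ovarian follicles several of these genes are known to respond to the preovulatory surge of luteinizing hormone (LH).

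Jund, Zfp36 and Junb were higher in every M1 ovary than in every Control ovary, whereas Fos, Ier2, Egr1 and Nr4a1 were above all Control ovaries in M1 mice 1 and 3 but not in M1 mouse 2. Jun, Fosb and Atf3 had lower means in M1 ovaries with overlapping values. In the edgeR quasi-likelihood test with Benjamini-Hochberg adjustment over all tested genes, 0 of the 10 members passed an adjusted p of 0.05 with a fold change above 1.5, where 0.00571% of all tested genes were called higher (1 gene, no member) and 0.0% lower. At an unadjusted p under 0.05 the same test gave 5 members higher in M1 (Fos, Junb, Jund, Ier2 and Zfp36), where 7.7% of all tested genes were higher, and 0 members lower, where 9.17% were lower. DESeq2 with its defaults and the same thresholds called 4 members higher (Junb, Jund, Ier2 and Zfp36), against 1.2% of the genes with an adjusted p, and 0 lower, against 1.35%. The groups did not overlap for 3 members, all higher in M1, where 11.4% of tested genes lay above and 11.2% lay below in every M1 ovary.

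The promoters of 4 members with different courses across the ovaries are shown first, to set the sequence beside the values: Fos, Junb and Nr4a1, which were high in M1 mice 1 and 3, and Jun, which was not. Each is the 150 bases before the RefSeq transcription start in GRCm38.p6, at chr12:85473740-85473889 on the plus strand for Fos, chr8:84978749-84978898 on the minus strand for Junb, chr15:101266696-101266845 on the plus strand for Nr4a1 and chr4:95052223-95052372 on the minus strand for Jun. Capitals mark motif matches on either strand. They are the CRE half-site TGACG, which begins the cyclic AMP response element TGACGTCA, and the binding motif of EGR proteins. The EGR motif was searched as GCGTGGGCG and as GCGGGGGCG. Only exact matches were marked. The stretch of Jun holds TGACATCA, which resembles TGACGTCA without matching it, and these letters were left in lower case. The RefSeq start of Nr4a1 lies inside the GENCODE gene. These 4 do not stand for the whole set. Zfp36 and Jund, higher in every M1 ovary, had no CRE half-site in their windows. Fosb and Atf3, with lower means in M1 ovaries, had it.
Fos: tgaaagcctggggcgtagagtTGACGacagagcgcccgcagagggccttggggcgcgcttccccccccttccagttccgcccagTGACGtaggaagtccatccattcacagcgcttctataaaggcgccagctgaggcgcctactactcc
Junb: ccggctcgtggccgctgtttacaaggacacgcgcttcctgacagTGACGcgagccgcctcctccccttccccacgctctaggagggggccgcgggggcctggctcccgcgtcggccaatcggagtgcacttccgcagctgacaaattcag
Nr4a1: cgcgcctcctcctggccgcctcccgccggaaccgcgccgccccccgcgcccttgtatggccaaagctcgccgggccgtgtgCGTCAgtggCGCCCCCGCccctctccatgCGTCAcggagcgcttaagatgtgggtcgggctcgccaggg
Jun: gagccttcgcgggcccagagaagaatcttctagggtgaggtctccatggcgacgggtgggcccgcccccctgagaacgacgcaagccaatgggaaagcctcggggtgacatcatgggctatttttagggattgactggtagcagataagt

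RefSeq windows of 300 bases, 250 before and 50 after the start, were at hand for 8 of the 10 members, and Egr1 and Ier2 had none. Bases outside the windows were not searched. The CRE half-site was searched after the sequences had been read. It occurred in 5 of the 8 windows (Fos, Fosb, Junb, Atf3 and Nr4a1) and in 20.8% of all 32851 promoter windows. The full element TGACGTCA was in 0 of the 8 and in 1.79% of all windows, and the AP-1 motif TGACTCA, searched on both strands, was in 0 of the 8 and in 5.2%. The EGR motif was in 3 of the 8 (Fosb, Zfp36 and Nr4a1) and in 3.47% of all windows. A CArG box, the motif of serum response factor, was found only in the Zfp36 window among the 8, as CCATAAAAGG at bases -58 to -49 from the RefSeq start, and in 1.63% of all windows. The RefSeq starts of Zfp36, Jund, Atf3 and Nr4a1 lie away from the GENCODE gene starts, and that of Atf3 lies inside its gene. The Zfp36 matches fall within a GENCODE exon. The windows of these genes thus need not hold the promoter in use. Each match is a description of letters in a window.

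Jund, which codes for the most steadily expressed Jun protein, had the tightest values. Its level was 84.8, 76.7 and 82.9 CPM (counts scaled to library size and to the trimmed mean of M values) in M1 mice 1 to 3, against 42.9, 51.3 and 41.2 CPM in Control mice 1 to 3. The 3 M1 ovaries lay close together and all above the Control ovaries. The difference was 0.85 on the log2 scale (SE 0.13, 3 mice each, edgeR unadjusted p = 0.000168, adjusted p = 0.195, DESeq2 adjusted p = 0.000305). Jund, a gene of 1 exon at chr8:70698949-70700616 (GRCm38, GENCODE vM21), overlaps the antisense gene Gm11175 over 877 bases, and Gm11175 had 0 counts in all 6 libraries. Its SD of log2 CPM within groups was 0.13, below the median of 0.269 over all tested genes and at the 16.1 percentile.

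Junb, a Jun protein that often acts against Jun at AP-1 sites, had 89.6, 40.8 and 95.9 CPM in M1 mice 1 to 3, against 12.8, 33.0 and 35.3 CPM in Control mice 1 to 3. M1 mouse 2 stood only a little above the highest Control ovary, and Control mouse 1 was well below the other Control ovaries. The log2 fold change was 1.48 (SE 0.44, edgeR unadjusted p = 0.01, adjusted p = 0.209, DESeq2 adjusted p = 0.017). Junb, at chr8:84974484-84978718, shares 173 exon bases with Prdx2 on the opposite strand, and whether the counting used strand is not given in the sources used here. Prdx2 had 6089, 6578 and 4653 unscaled counts in M1 mice 1 to 3, against 4256, 4254 and 6231 in Control mice 1 to 3. Junb had 187 to 1380 counts per library. The part of Prdx2 reads in the Junb counts was not tested.

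Jun, the founding member of its family, ran differently. It had 67.9, 92.2 and 55.4 CPM in M1 mice 1 to 3, against 23.6, 167.9 and 115.8 CPM in Control mice 1 to 3. The M1 values all fell inside the Control range, and M1 mouse 2 was the highest of the M1 ovaries for this gene alone. Its log2 fold change was -0.51 (SE 0.58, edgeR adjusted p = 0.686, DESeq2 adjusted p = 0.788). The antisense gene Junos, which shares 232 exon bases with Jun, had 13 to 28 counts per library. Control mouse 2, the highest ovary, carried the sign, since the value was 0.05 without it. Without Control mouse 1, the lowest ovary, the value was -0.98 (adjusted p = 0.067).

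Fos, the classical partner of Jun in AP-1, had 49.0, 8.18 and 55.1 CPM in M1 mice 1 to 3, against 14.5, 8.94 and 13.2 CPM in Control mice 1 to 3. M1 mice 1 and 3 were above every Control ovary, and M1 mouse 2 was below every one. M1 over Control gave a log2 fold change of 1.61 (SE 0.60, edgeR unadjusted p = 0.0292, adjusted p = 0.257, DESeq2 adjusted p = 0.243). Without M1 mouse 2 it was 2.1 (adjusted p = 0.163).

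Fosb, its close relative, was scarce, with 38, 10 and 22 counts in M1 mice 1 to 3, against 21, 60 and 14 counts in Control mice 1 to 3. The groups overlapped throughout, at a log2 fold change of -0.29 (SE 0.67, edgeR adjusted p = 0.856). The sign turned without M1 mouse 2 (0.08) and without Control mouse 2 (0.59). Atf3, a stress-responsive factor of the ATF family that also pairs with Jun, had 2.01, 0.84 and 1.66 CPM in M1 mice 1 to 3, against 1.71, 2.68 and 2.23 CPM in Control mice 1 to 3. M1 mouse 1 lay within the Control range and the other M1 ovaries lay below it. The log2 fold change was -0.55 (SE 0.40, edgeR adjusted p = 0.517), and -0.26 without M1 mouse 2. Each library held 12 to 42 counts of Atf3.

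Egr1, a zinc finger factor needed in the pituitary for the LH beta chain, had the widest M1 values. It had 325.0, 36.8 and 209.1 CPM in M1 mice 1 to 3, against 89.2, 89.2 and 158.1 CPM in Control mice 1 to 3. M1 mouse 2 was the lowest of the 6 ovaries, while M1 mice 1 and 3 were the highest. The log2 fold change was 0.76 (SE 0.65, edgeR adjusted p = 0.579, DESeq2 adjusted p = 0.699), 0.14 without M1 mouse 1 and 1.26 without M1 mouse 2 (adjusted p = 0.417). The SD of log2 CPM within groups was 1.22, at the 98.2 percentile of tested genes.

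Nr4a1, an orphan nuclear receptor that drives steroidogenic genes, had 85.2, 36.4 and 140.0 CPM in M1 mice 1 to 3, against 18.5, 77.5 and 67.1 CPM in Control mice 1 to 3. M1 mouse 2 fell between the Control ovaries and Control mouse 1 was the lowest of all. edgeR put the log2 fold change at 0.68 (SE 0.59, adjusted p = 0.585, DESeq2 adjusted p = 0.709). It was 0.18 without M1 mouse 3, 0.27 without Control mouse 1, 1.05 without M1 mouse 2 and 1.03 without Control mouse 2.

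Ier2, a small nuclear protein of the immediate early response, had 130.4, 30.2 and 106.3 CPM in M1 mice 1 to 3, against 21.8, 32.2 and 31.1 CPM in Control mice 1 to 3. M1 mice 1 and 3 were far above the Control ovaries, and M1 mouse 2 lay among them. On the log2 scale the fold change was 1.65 (SE 0.48, edgeR unadjusted p = 0.00903, adjusted p = 0.208, DESeq2 adjusted p = 0.0103). Ier2 is a gene of 1 exon at chr8:84661331-84662852.

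Zfp36, which codes for tristetraprolin, a protein that binds AU-rich elements and speeds the decay of mRNAs, had the largest fold change of the set in the edgeR fit on all 6 ovaries. It had 116.1, 66.4 and 156.3 CPM in M1 mice 1 to 3, against 25.4, 33.5 and 38.1 CPM in Control mice 1 to 3. Even M1 mouse 2 was above the highest Control ovary. The log2 fold change was 1.80 (SE 0.31, edgeR unadjusted p = 0.000454, adjusted p = 0.195, DESeq2 adjusted p = 1.82e-05). Zfp36 lies at chr7:28376784-28380253 and shares 125 exon bases with the antisense gene Gm44710, which had 4 to 16 counts per library.

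**Figure D1:**
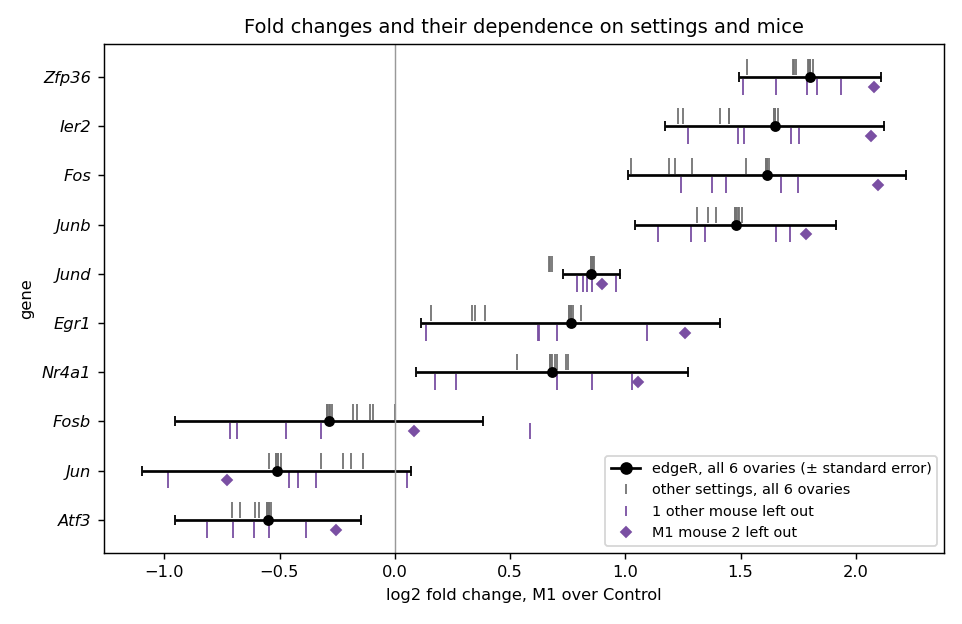
Log2 fold change of each gene, M1 over Control, with the standard error from edgeR on all 6 ovaries (black), other settings (grey ticks) and 1 mouse left out in turn (purple, with a diamond for M1 mouse 2). The values of 7 genes, Zfp36 to Nr4a1, stay above 0 throughout, and the values of Fosb and Jun reach both sides of 0.

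Leaving out single mice bore on the members unequally. Zfp36, Jund, Junb and Ier2 had an unadjusted edgeR p under 0.05 in each of the 6 fits with 1 mouse left out, whereas Fos did so without M1 mouse 2 or Control mouse 1 and not in the other 4. Without M1 mouse 2, 6 members were higher at that threshold (Egr1 was added), where 5.49% of all tested genes were, 0 were lower, where 5.82% of all tested genes were, and 0 members passed the adjusted threshold. Without Control mouse 1, 5 members were higher at the unadjusted threshold, where 12.3% of all tested genes were, and 1 was lower (Jun), where 14.6% were. The same fit called 2 members higher after adjustment (Jund, adjusted p = 0.038, and Zfp36, adjusted p = 0.0485), where 1.28% of all tested genes were called.

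The members varied by mouse as well as by group. M1 mice 1 and 3 were the highest pair of the 6 ovaries for 7 members (Fos, Junb, Jund, Egr1, Ier2, Zfp36 and Nr4a1). M1 mouse 2 was the lowest M1 ovary for 9 members, below every Control ovary for 4 (Fos, Fosb, Egr1 and Atf3), within the Control range for 3 and above it for 3. Control mouse 1 was the lowest of all 6 ovaries for 5 members (Jun, Junb, Ier2, Zfp36 and Nr4a1). Relative to the Control mean, the median member stood at 1.25, -0.11 and 1.28 on the log2 scale in M1 mice 1 to 3, and at -0.32, 0.25 and 0.20 in Control mice 1 to 3. These mice were singled out after their values had been seen, and the statements describe single ovaries. The SD of log2 CPM within groups was above 0.693, the 90th percentile of tested genes, for 7 members. The median log2 fold change of the 10 members was 0.81, beside -0.005 over all tested genes.

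**Figure D2:**
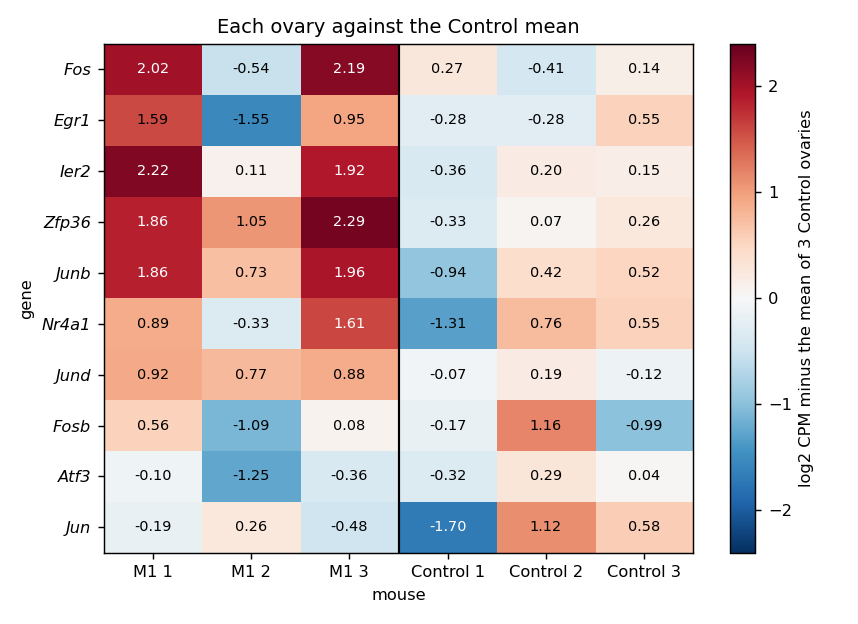
Log2 CPM of each gene in each ovary minus the mean of the 3 Control ovaries, with M1 mice left of the black line and Control mice right of it. Red columns for M1 mice 1 and 3 contrast with the mixed column of M1 mouse 2, and the row of Jund is alike in all 3 M1 mice.

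Compared per length in TPM, the order of the levels also differed between the groups. In M1 ovaries the order of mean TPM was Ier2, Jund, Egr1, Junb, Zfp36, Nr4a1, Jun, Fos, Atf3 and Fosb. Ier2 averaged 181 ± 113 TPM and Jund 147 ± 17.6 TPM there (SD, n = 3). In Control ovaries the order was Jun, Jund, Egr1, Ier2, Nr4a1, Junb, Zfp36, Fos, Atf3 and Fosb, led by Jun at 107.8 ± 74.8 TPM and Jund at 92.0 ± 8.22 TPM (SD, n = 3). Neighbours in either order mostly overlapped in range. In M1 ovaries only Fos and Atf3 were separate neighbours, and in Control ovaries Zfp36 and Fos, Fos and Atf3, and Atf3 and Fosb were. Fosb averaged 0.808 ± 0.476 TPM in M1 ovaries and 1.08 ± 0.832 TPM in Control ovaries, the lowest of the set in both (SD, n = 3 each).

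Genes with a pattern like that of the members were sought among 10743 tested genes of at least 10 CPM, as the Pearson correlation over the 6 ovaries with the mean of the 10 scaled members. The 10 closest were Trp53i13 (0.983), Btg2 (0.970), Gm28437 (0.970), Cyp19a1 (0.969), Tmco6, Actr5, Atg10, Git2, Ldhd and Sorbs3 (0.951). These are the tops of a long ranking over 6 points, which the high values of M1 mice 1 and 3 dominate, and are given without a test. Btg2, an antiproliferative immediate early gene, had 99.5, 19.9 and 89.7 CPM in M1 mice 1 to 3, against 23.4, 50.9 and 39.7 CPM in Control mice 1 to 3. Cyp19a1, the aromatase of granulosa cells, had 74.4, 14.6 and 55.7 CPM in M1 mice 1 to 3, against 15.9, 26.7 and 23.4 CPM in Control mice 1 to 3. Both followed the split between M1 mouse 2 and the other M1 mice, and neither passed the edgeR test (adjusted p = 0.445 for Btg2 and 0.315 for Cyp19a1). Gm28437 is annotated as an unprocessed pseudogene, so its reads may be shared with a near-identical copy. Of the members, Ier2 (0.942), Junb (0.909) and Nr4a1 (0.907) lay closest to the mean that they are part of, and Jun (0.246) farthest.

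Other immediate early genes showed values on both sides of 0. Of a list of 44, 41 were tested, 26 had a log2 fold change above 0 and 15 below, with a median of 0.27. At an unadjusted edgeR p under 0.05, 3 were higher in M1 (Tob1, Cyr61 and Nfkbiz) and 1 was lower (Zfp36l2), and 0 passed the adjusted threshold. Over all tested genes 7.7% were higher and 9.17% lower at that p, so the count was near or below the background in each direction, and the counts of the lists that follow are to be read against the same shares. Tob1, an antiproliferative relative of Btg2, had a log2 fold change of 1.00 (SE 0.34, edgeR adjusted p = 0.238). Zfp36l2, a relative of Zfp36 with the same kind of RNA-binding zinc fingers, went the other way at -0.67 (SE 0.12, edgeR adjusted p = 0.195, DESeq2 adjusted p = 0.00434). It was the 1 gene of the list that DESeq2 called, beside 0 called higher.

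Of the AP-1 partners and the upstream factors, 0 were called by edgeR or by DESeq2 in either direction. Among AP-1 partners and repressors 14 of 15 were tested, with 8 above and 6 below 0, a median of 0.13, and 2 higher and 4 lower at an unadjusted edgeR p under 0.05. Atf4, a factor of the integrated stress response, was at 0.62 (SE 0.16, adjusted p = 0.201) and Atf7 at -0.56 (SE 0.13, adjusted p = 0.195). Among 29 upstream kinases and factors 8 were above and 21 below 0, with a median of -0.10, and 2 were higher (Crem and Mapk3) and 3 lower (Prkacb, Srf and Rps6ka3). Srf, which binds CArG boxes, was at -0.38 (SE 0.16, adjusted p = 0.292).

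For the corepressors and partners of Egr1 and Nr4a1, 7 of 8 were tested, with 3 above and 4 below 0, a median of -0.16, and 1 higher and 2 lower at an unadjusted p under 0.05. Nab2, a corepressor of Egr1, was at 0.93 (SE 0.23, edgeR adjusted p = 0.195, DESeq2 adjusted p = 0.0188). Rxra, a retinoid receptor that pairs with Nr4a1, was at -0.96 (SE 0.22, edgeR adjusted p = 0.195, DESeq2 adjusted p = 0.0121). Of 11 partners of Zfp36 in mRNA decay 4 were above and 7 below 0, with a median of -0.16, and 0 were higher and 4 lower. Cnot1, the scaffold of the CCR4-NOT deadenylase, was at -0.81 (SE 0.20, edgeR adjusted p = 0.197, DESeq2 adjusted p = 0.0235). Only 5 of 11 mRNAs known as Zfp36 targets were abundant enough to test, 3 above and 2 below 0 with a median of 0.27, and 1 was higher (Vegfa, 0.67, SE 0.25, adjusted p = 0.251).

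Genes that LH induces in preovulatory follicles were set beside the members. Of 16, 12 were tested, 6 above and 6 below 0, with a median of -0.07. Runx2, at 0.50 (SE 0.17, edgeR adjusted p = 0.234), was the 1 gene past an unadjusted p of 0.05, and 0 were lower at that threshold. Areg, Ptgs2, Has2 and Snap25 did not pass the filter on low counts.

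Cell type markers differed between the ovaries, and in bulk tissue fewer cells of a type and less RNA per cell cannot be told apart. All 12 granulosa markers were tested, and their summed level was 9589, 4502 and 8050 CPM in M1 mice 1 to 3, against 8297, 5428 and 5610 CPM in Control mice 1 to 3. M1 mouse 2, the lowest M1 ovary for 9 members, was the lowest of the 6 ovaries for this sum. Control mouse 1, the lowest ovary for 5 members, was above both other Control mice. Gja1 was the largest part of the granulosa sum in every ovary. Foxl2, Nr5a2, Inhba, Inhbb and Fst were not lowest in M1 mouse 2, and the other markers of the list were. The oocyte sum of 10 markers was 333, 220 and 385 CPM in M1 mice, against 642, 469 and 423 CPM in Control mice, with all M1 ovaries lower. All 10 oocyte markers had a log2 fold change below 0, but only 4 were lower in every M1 ovary, where 11.2% of all tested genes were. Zp1, Zp3, Gdf9, Bmp15 and Oosp1 were higher in M1 mouse 3 than in Control mouse 3. Nlrp5 had 42.3, 20.1 and 36.6 CPM in M1 mice, against 68.7, 75.6 and 103 CPM in Control mice. The sum of 9 theca and interstitial markers was 26037, 27224 and 17543 CPM in M1 mice, against 12738, 26422 and 19683 CPM in Control mice, highest in M1 mouse 2 and lowest in Control mouse 1. Only Star of that list was highest in M1 mouse 2, and only Cyp11a1 and Star were lowest in Control mouse 1. Cyp17a1 had 312, 49.0 and 144 CPM in M1 mice 1 to 3, against 60.3, 523 and 28.6 CPM in Control mice 1 to 3. Ptch1 was lowest of all ovaries in M1 mouse 2. The sum of 7 luteal markers, which shares Lhcgr and Hsd3b1 with the theca and interstitial list, was 23495, 22113 and 14274 CPM in M1 mice, against 11619, 21566 and 13385 CPM in Control mice. It was again lowest in Control mouse 1, and Hsd3b1 was its largest part in every ovary. Akr1c18 alone had 394, 5939 and 379 CPM in M1 mice 1 to 3, against 3.08, 2394 and 1125 CPM in Control mice 1 to 3. Among M1 mice, Akr1c18 and Parm1 were highest in mouse 2, and Ptgfr, Prlr, Lhcgr, Sfrp4 and Hsd3b1 in mouse 1. Red cell markers gave 324, 22.0 and 68.5 CPM in M1 mice, against 70.2, 124 and 50.7 CPM in Control mice, with M1 mouse 2 again lowest. Neutrophil markers summed to 3.45 to 11.8 CPM over all 6 ovaries, and 5 of the 8 (Ly6g, Mpo, Elane, Cxcr2 and Retnlg) did not pass the filter. The part of cell makeup in the values of the members was not tested.

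**Figure D3:**
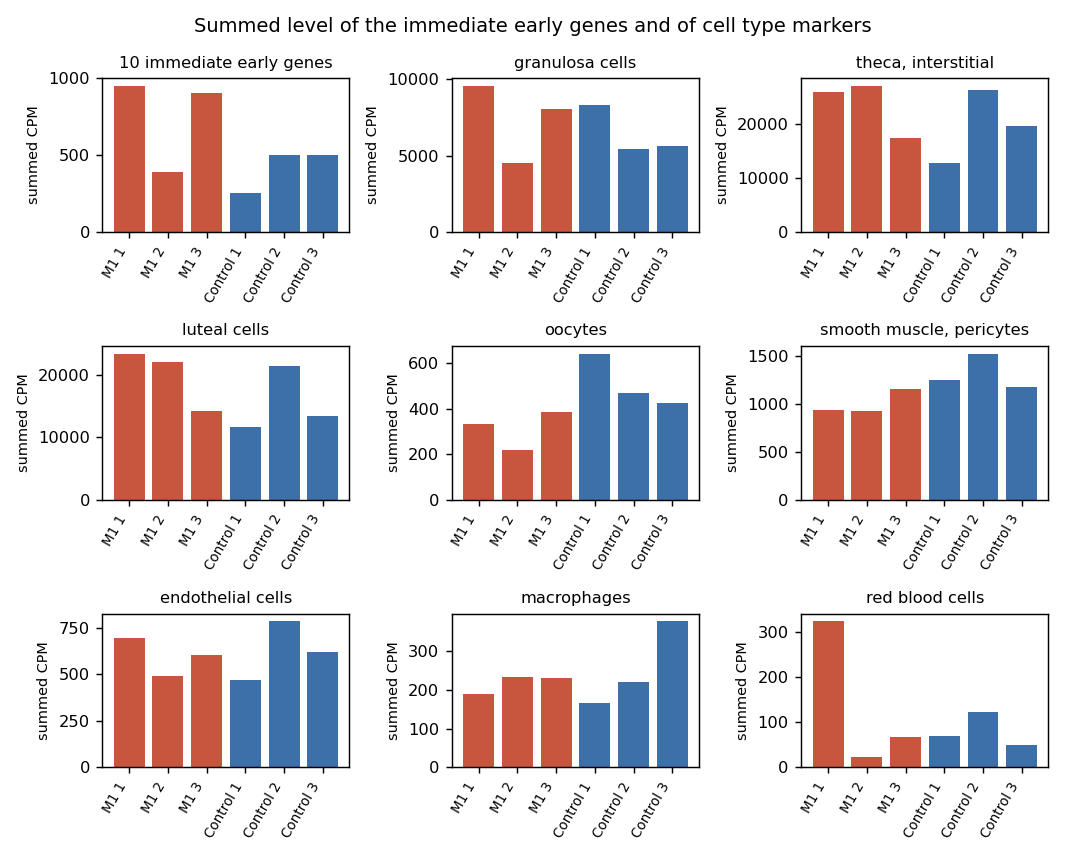
Summed CPM of the 10 immediate early genes and of 8 lists of cell type markers in each ovary, M1 (red) left of Control (blue). The immediate early sum is 952, 389 and 904 CPM in M1 mice and 252, 500 and 503 CPM in Control mice, and among M1 mice both this sum and the granulosa sum are lowest in mouse 2.

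Each library held between 12536440 and 18651402 counts assigned to genes. The share of counts on mitochondrial genes was higher in every M1 library (5.98% to 7.35%) than in every Control library (3.82% to 5.14%). The deviation of log2 CPM from the mean of all libraries was fitted on log2 gene length. Its slope was 0.085 and 0.0991 in Control mice 2 and 3, against -0.0703 to -0.0213 in the other libraries. The part of these library differences in the result was not tested beyond the fits with a length offset. The labels give no sampling batch. The p-values set the difference between the groups against the spread between mice within groups.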

How the data were processed

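Poly-A mRNA from the homogenised ovaries of 3 M1 and 3 Control mice was sequenced paired-end. Per the labels and methods, the authors trimmed reads with Trimmomatic 0.38, aligned them to GRCm38 with HISAT2 2.1.0 and assigned them to genes by featureCounts 2.0.0. The deposited table of raw counts was used for tests. The deposited TPM, which the authors scaled for gene length and depth, were used for levels, and the deposited FPKM gave gene lengths (within 1 base of the GENCODE exon union for 100% of annotated genes with a count). Groups came from the sample labels, and each mouse is 1 replicate.

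Counts were filtered with filterByExpr (minimum count 10, total 15), scaled with TMM and tested with edgeR 4.0.16 (glmQLFit, glmQLFTest) in R 4.3.3, with Benjamini-Hochberg adjustment over all tested genes. Calls needed an adjusted p below 0.05 together with a change of more than 1.5 times. The standard error is the log2 fold change divided by the square root of F. Log2 CPM used a prior count of 2. Alternatives were DESeq2 1.42.0, limma 3.58.1 (voom, and log2(TPM + 1) with a pseudocount of 1), RLE scaling, other filters, a replicate block, a gene length offset and each mouse left out. The edgeR fit was tested on simulated data.

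The members and gene lists were chosen with earlier results of these data known. All 10 members are named, with up to 6 genes of smallest p from each list of related genes (some genes are in more than 1 list) and the 10 genes most like the members. Promoters came from RefSeq (GRCm38.p6).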

Additional observations from a re-analysis of the deposited data

How the results depend on the processing

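Over all tested genes, edgeR called 1 gene higher and 0 lower. DESeq2 called 191 higher and 215 lower, DESeq2 with independent filtering at 0.05 (chosen after seeing the data, and run before the default was kept) 198 and 228, and edgeR with no filter beyond 1 count 77 and 78. The replicate block called 0 higher, as did the gene length offset with the block. With 1 mouse left out the count ranged from 0 to 230 higher and from 0 to 552 lower, with both maxima without Control mouse 1. Members called higher were 0 in edgeR, 4 in either DESeq2 fit, 4 with no filter, and 0 to 2 with 1 mouse left out. The cause of these differences was not tested.

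Over 160 alternative values of the 10 members, 142 kept their direction and side of the threshold, 14 passed it (Ier2, Junb, Jund and Zfp36) and 4 changed sign. Fosb was 0.0014 under the length offset with the block, and ranged from -0.71 to 0.59 with 1 mouse left out. Jun ranged from -0.983 to 0.051. Fos had an unadjusted p of 0.149 with limma-voom. With limma on log2(TPM + 1), Fos had an unadjusted p of 0.182 and Ier2 of 0.0565, while Zfp36, Jund and Junb stayed under 0.05. The labels number the mice in both groups, but same-numbered deviations correlated at 0.067, 0.106 and -0.255, so the numbers were not taken to pair the mice, and the block called 0 members. Fosb had 10 to 60 and Atf3 12 to 42 counts per library, and counting error and spread between mice were not separated for them.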
